A study of Mus musculus with 11 samples.

Results

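The D-type cyclins Ccnd1, Ccnd2 and Ccnd3 and the 2 kinases they activate, Cdk4 and Cdk6, were followed in mouse hearts at embryonic day 9.5 on every probe set whose single annotated gene symbol is one of these 5 names. They are 5 of 18193 genes with such a probe set and comprised 19 of the 45037 probe sets tested, 7 for Ccnd2 and 3 for each of the other genes. RNA of pooled hearts was measured on 11 one-colour arrays in 3 genotype groups. The 5 conditional knockout arrays, written CKO-labelled, carried the genotype Gata4 flox/flox with Nkx2-5 cre/+. The 3 double heterozygous arrays carried Gata4 flox/+ with Nkx2-5 cre/+, and the 3 control arrays carried Gata4 flox/+ with Nkx2-5 +/+. All 3 groups therefore had at least 1 floxed Gata4 allele, and the controls had no Cre. The Nkx2-5 cre allele carries Cre at Nkx2-5, a gene of cardiac progenitors and cardiomyocytes, so that both Cre groups also carry 1 altered Nkx2-5 allele. The series title places its question in proliferation of myocardium from the second heart field and in Ccnd2.

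D-type cyclins are the part of the cell cycle engine that growth signals and tissue transcription factors set. Each of the 3 proteins binds the kinases CDK4 or CDK6, and the complexes phosphorylate the retinoblastoma protein, which releases E2F factors and lets a cell pass from G1 into S phase. The INK4 and CIP/KIP proteins hold the kinases in check. In mice the 3 cyclins can replace one another in part, and embryos without all of them die with defects of the heart and of blood formation. Embryos without Cdk4 and Cdk6 die with severe anaemia.

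Promoter sequence from RefSeq (GRCm38.p6) was matched by symbol for 3 of the 5 genes, Ccnd3, Cdk4 and Cdk6, and not for Ccnd1 or Ccnd2. The 250 bases before the annotated start are shown for Cdk4, whose CKO-labelled and control arrays did not overlap on its lead probe set, and for Cdk6 and the 2 starts of Ccnd3, whose arrays did. All 4 windows lie on the plus strand, and capitals mark the E-box CACGTG. The windows are chr10:127063285-127063534 for Cdk4, chr5:3343643-3343892 for Cdk6, and chr17:47504801-47505050 and chr17:47593217-47593466 for Ccnd3.
Cdk4: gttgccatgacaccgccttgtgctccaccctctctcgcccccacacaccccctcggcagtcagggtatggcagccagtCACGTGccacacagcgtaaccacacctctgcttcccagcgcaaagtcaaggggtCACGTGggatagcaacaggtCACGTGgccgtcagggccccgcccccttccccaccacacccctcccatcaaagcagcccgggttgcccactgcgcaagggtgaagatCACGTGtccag
Cdk6: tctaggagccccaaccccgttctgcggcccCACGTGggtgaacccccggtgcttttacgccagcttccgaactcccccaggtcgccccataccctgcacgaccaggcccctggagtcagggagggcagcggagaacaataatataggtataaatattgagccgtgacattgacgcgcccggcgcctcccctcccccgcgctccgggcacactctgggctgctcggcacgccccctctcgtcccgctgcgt
Ccnd3, upstream start: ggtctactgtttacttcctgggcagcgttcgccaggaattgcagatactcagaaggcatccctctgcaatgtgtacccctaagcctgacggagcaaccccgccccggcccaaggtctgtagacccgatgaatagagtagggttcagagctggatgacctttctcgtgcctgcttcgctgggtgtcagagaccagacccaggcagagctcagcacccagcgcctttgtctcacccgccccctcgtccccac
Ccnd3, downstream start: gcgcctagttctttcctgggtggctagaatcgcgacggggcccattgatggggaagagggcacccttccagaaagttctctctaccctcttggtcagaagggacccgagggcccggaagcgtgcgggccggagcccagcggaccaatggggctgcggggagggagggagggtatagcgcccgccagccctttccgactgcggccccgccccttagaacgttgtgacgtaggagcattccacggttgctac
The Cdk4 window held CACGTG 4 times, the Cdk6 window 1 time, and neither Ccnd3 window held it. Of 32851 promoter windows of the same length, 6.02% held CACGTG. The GATA words AGATAA or AGATAG or TGATAA or TGATAG, read on both strands, were in none of the 4 windows, against 26.5% of all windows. The E2F words TTTCGCGC and TTTGGCGC were in none of them either, against 0.654% of all windows. No 2 of these motifs overlap, and a match or its lack in this window describes the letters only.

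CKO replicate 3 was dimmer than the rest, with a mean deposited intensity of 117.2, against 166.4 to 175.6 for the other 10 arrays. The log2 difference between the 3' and 5' beta-actin control probe sets was 1.001 in CKO replicate 2, against 0.29 to 0.45 in the other 10 arrays. The values below are log2(intensity + 16) after quantile scaling, and a probe set is called when limma's moderated test gives an adjusted p under 0.05 over all 45037 probe sets. The number of arrays limits the precision, and because the labels do not say that replicates came from separate pools, p-values measure the spread between these arrays, which may be technical. In pooled hearts, fewer cells of a type and less RNA per cell cannot be told apart. Gata4, the floxed gene, was not called lower in CKO-labelled arrays on either of its probe sets. Its brighter probe set, 1418863_at, read 9.53, 9.28, 9.45, 9.37 and 9.53 in CKO-labelled arrays, 9.40, 9.21 and 9.33 in double heterozygous arrays, and 8.77, 9.09 and 9.09 in control arrays. The second, 1418864_at, gave a log2 fold change of 0.08 over control (limma adjusted p = 0.958) and -0.32 over double heterozygous arrays (limma adjusted p = 0.781), with CKO replicate 2 at 6.42, below all other arrays. The sources used here do not say where its probes lie relative to the deleted part, and the signal cannot check the labels. Between CKO-labelled and control arrays, 632 probe sets (1.4%) were called, 377 of them higher (0.837%) and 255 lower (0.566%). With median centring in place of quantile scaling the split was 142 higher and 220 lower, and on the deposited scale 45 higher and 47 lower.

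Ccnd2, which encodes cyclin D2, was the only one of the 5 genes with a called probe set in any comparison. Its mean was lower in CKO-labelled than in control arrays on all 7 of its probe sets, and 3 of them fell. On its lead probe set, 1416122_at, the log2 signal was 11.04, 11.48, 11.14, 11.03 and 11.05 in CKO-labelled arrays 1 to 5, against 11.61, 11.59 and 11.67 in control arrays. Every CKO-labelled array lay below every control array, and CKO replicate 2 lay nearest to them. The fall was 1.39-fold, a log2 fold change of -0.48 (SE 0.0931, limma adjusted p = 0.0197). The probe set with the tightest groups was 1430127_a_at, which read 10.87, 10.83, 10.78, 10.68 and 10.65 in CKO-labelled arrays and 11.22, 11.22 and 11.22 in control arrays. Here CKO replicate 2 lay within the other CKO-labelled arrays. This fall was 1.37-fold, a log2 fold change of -0.46 (SE 0.0731, limma adjusted p = 0.00497). The third, 1434745_at, fell by 0.39 on the log2 scale (SE 0.0882, limma adjusted p = 0.0403) and again had CKO replicate 2 at 11.47, above the other 4 CKO-labelled arrays at 11.04 to 11.13. None of the 3 calls held on the deposited scale, where the log2 fold changes were -0.63, -0.63 and -0.56 (limma adjusted p = 0.0871, 0.0615 and 0.171), or without limma's intensity trend. The lead's call was also lost when any 1 control array was left out (limma adjusted p = 0.0924 to 0.112), as was that of 1434745_at (0.149 to 0.209), and that of 1430127_a_at was not.

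The other 4 Ccnd2 probe sets did not pass the test. Their log2 fold changes in CKO-labelled over control arrays were -0.53 (1455956_x_at, adjusted p = 0.0732), -0.38 (1448229_s_at), -0.43 (1416123_at) and -1.23 (1416124_at, adjusted p = 0.25). A name ending in _x_at or _s_at marks probes that can match further transcripts. CKO replicate 2 decided much of their spread. On 1416123_at it read 8.25, against 7.15 to 7.87 in the other 4 CKO-labelled arrays and 7.95 to 8.26 in control arrays. On 1416124_at it read 4.45, against 6.32 to 7.45 in the other 4 CKO-labelled arrays and 7.51 to 7.89 in control arrays. CKO replicate 2 was thus the highest of its group on every Ccnd2 probe set but 1430127_a_at and 1416124_at. It was by far the lowest on 1416124_at. Without it, the log2 fold change of 1416124_at was -0.72, the 7 probe sets lay between -0.47 and -0.72, and 4 of the 7 fell.

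**Figure D1:**
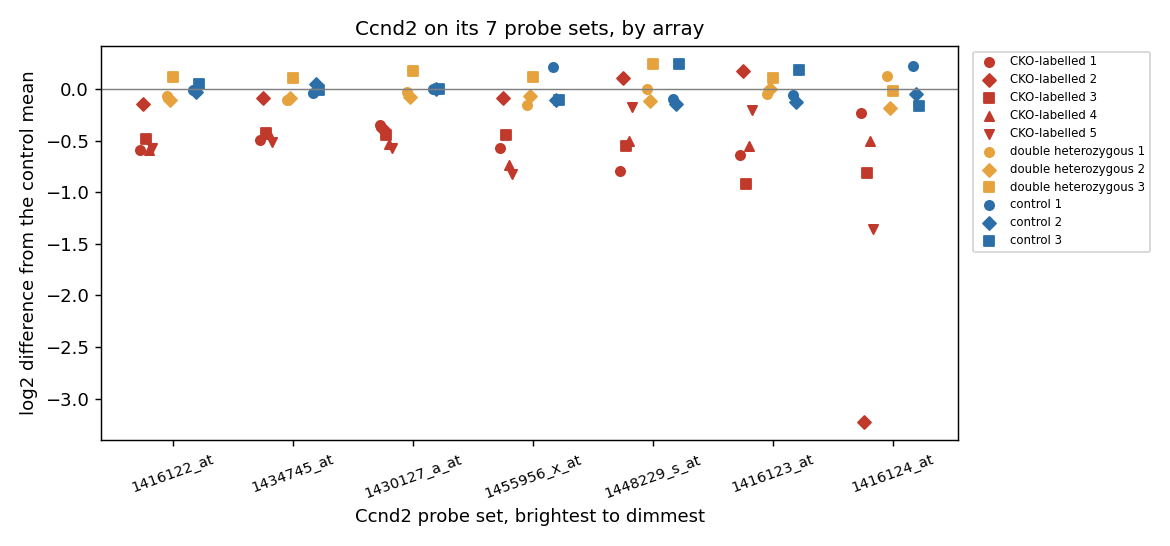
Log2 signal of the 7 Ccnd2 probe sets on each array, as the difference from the mean of the 3 control arrays (vertical axis), with probe sets ordered by mean signal (horizontal axis) and each point 1 array. CKO-labelled arrays are red, double heterozygous yellow and control blue, and the shape gives the replicate. CKO replicate 2 (red diamond) lies near or above 0 on 5 probe sets, with the other CKO-labelled arrays on 1430127_a_at, and more than 3 log2 units below 0 on 1416124_at.

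Ccnd1 encodes cyclin D1, the D-type cyclin that responds most directly to mitogens in many cells. None of its 3 probe sets passed the test. Its lead probe set, 1417420_at, read 8.93, 9.24, 8.78, 9.19 and 9.11 in CKO-labelled arrays, against 9.18, 9.28 and 9.23 in control arrays. The groups overlapped, with CKO replicates 2 and 4 among the control values and CKO replicates 1, 3 and 5 below all of them. The log2 fold change was -0.18 (95% interval -0.40 to 0.05, limma adjusted p = 0.519). The other probe sets gave -0.31 (1448698_at, adjusted p = 0.322) and -0.12 (1417419_at, adjusted p = 0.83). Without CKO replicates 2 and 3, 1448698_at gave -0.50 and passed (limma adjusted p = 0.0093), and it passed with array weights (-0.41, limma adjusted p = 0.0277).

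Ccnd3 encodes cyclin D3, best known from blood cell precursors. None of its 3 probe sets passed the test, and only the lead, 1415907_at, was bright. It read 10.63, 10.46, 10.72, 10.38 and 10.79 in CKO-labelled arrays, against 10.30, 10.43 and 10.72 in control arrays. The groups overlapped across most of their range. The log2 fold change was 0.11 (95% interval -0.11 to 0.33, limma adjusted p = 0.712), with the sign turned under median centring (-0.06) and on the deposited scale (-0.05). The other probe sets, 1444323_at and 1438805_at, lay at the 45.6th and 11.03th percentile of mean signal, with mean deposited intensities of 23.7 and 4.33 in CKO-labelled arrays and 20.2 and 5.5 in control arrays. No probe set of Ccnd1 or Ccnd3 was called higher where Ccnd2 was lower. On the lead probe sets the 95% intervals reached up to a log2 fold change of 0.05 for Ccnd1 and 0.33 for Ccnd3.

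Cdk4 encodes the kinase partner that the D-type cyclins share in most tissues. Its mean was lower in CKO-labelled arrays on all 3 of its probe sets, and none passed the test. On the lead probe set, 1422439_a_at, CKO-labelled arrays read 10.28, 10.34, 10.18, 10.02 and 10.22, against 10.41, 10.44 and 10.38 in control arrays. On 1422440_at they read 9.51, 9.56, 9.70, 9.25 and 9.38, against 9.86, 9.83 and 9.87 in control arrays. On both probe sets every CKO-labelled array lay below every control array. The log2 fold changes were -0.20 (95% interval -0.36 to -0.04, limma adjusted p = 0.236) and -0.37 (95% interval -0.57 to -0.17, limma adjusted p = 0.0655). On 1422440_at the adjusted p was 0.0439 without CKO replicate 2 and 0.0225 without CKO replicate 3. The brightest Cdk4 probe set, 1422441_x_at, gave -0.22 with overlapping groups, with CKO replicate 3 at 10.97, above all 3 control arrays.

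Cdk6 encodes the second kinase partner, prominent in blood cell precursors. None of its 3 probe sets passed the test. The lead, 1455287_at, read 7.93, 8.57, 8.07, 8.21 and 8.30 in CKO-labelled arrays, against 8.12, 8.14 and 8.23 in control arrays. CKO-labelled arrays lay on both sides of the control arrays, with CKO replicate 2 highest of all 11. The log2 fold change was 0.05 (95% interval -0.22 to 0.33, limma adjusted p = 0.91), and its sign turned under median centring (-0.10), on the deposited scale (-0.10) and without CKO replicate 2 (-0.03). The second, 1435338_at, gave -0.14, and the third, 1460291_at, lay at the 19.5th percentile of mean signal and gave -0.08.

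**Figure D2:**
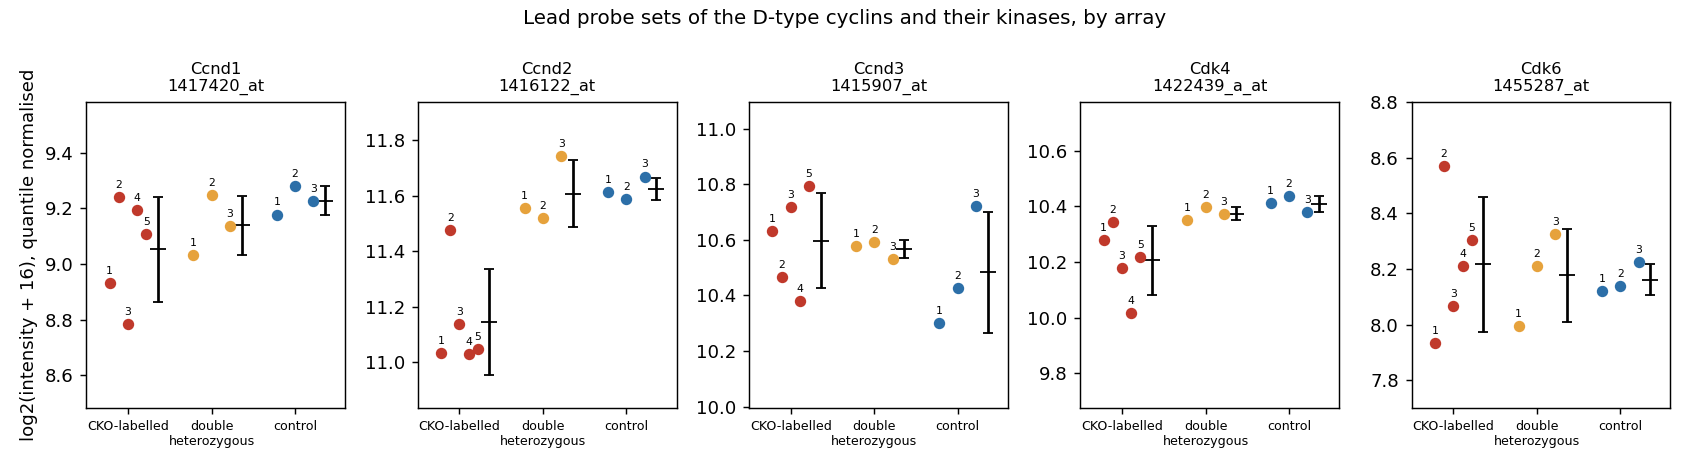
Quantile-scaled log2(intensity + 16) of the lead probe set of each gene (vertical axes, each spanning the same number of log2 units) in CKO-labelled, double heterozygous and control arrays (horizontal axis). Points are arrays with their replicate number, and bars are mean ± SD. The groups of Ccnd2 and Cdk4 do not overlap between CKO-labelled and control arrays, and those of Ccnd1, Ccnd3 and Cdk6 do.

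Of the 19, the mean of 16 was lower in CKO-labelled than in control arrays (background 51.5% of all probe sets), and the median log2 fold change was -0.22, against -0.01 over all 45037. Called lower were 3 of the 19 (background 0.566%), all of them Ccnd2, and 0 were called higher. Groups did not overlap, with CKO-labelled arrays below, on 6 of the 19 (background 5.81%), 4 of Ccnd2 and 2 of Cdk4. An unadjusted p under 0.05 was reached by 10 of the 19 (background 13.2%), all 7 of Ccnd2, 2 of Cdk4 and 1 of Ccnd1. Probe sets of 1 gene are not independent of each other, so these counts describe the list.

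**Figure D3:**
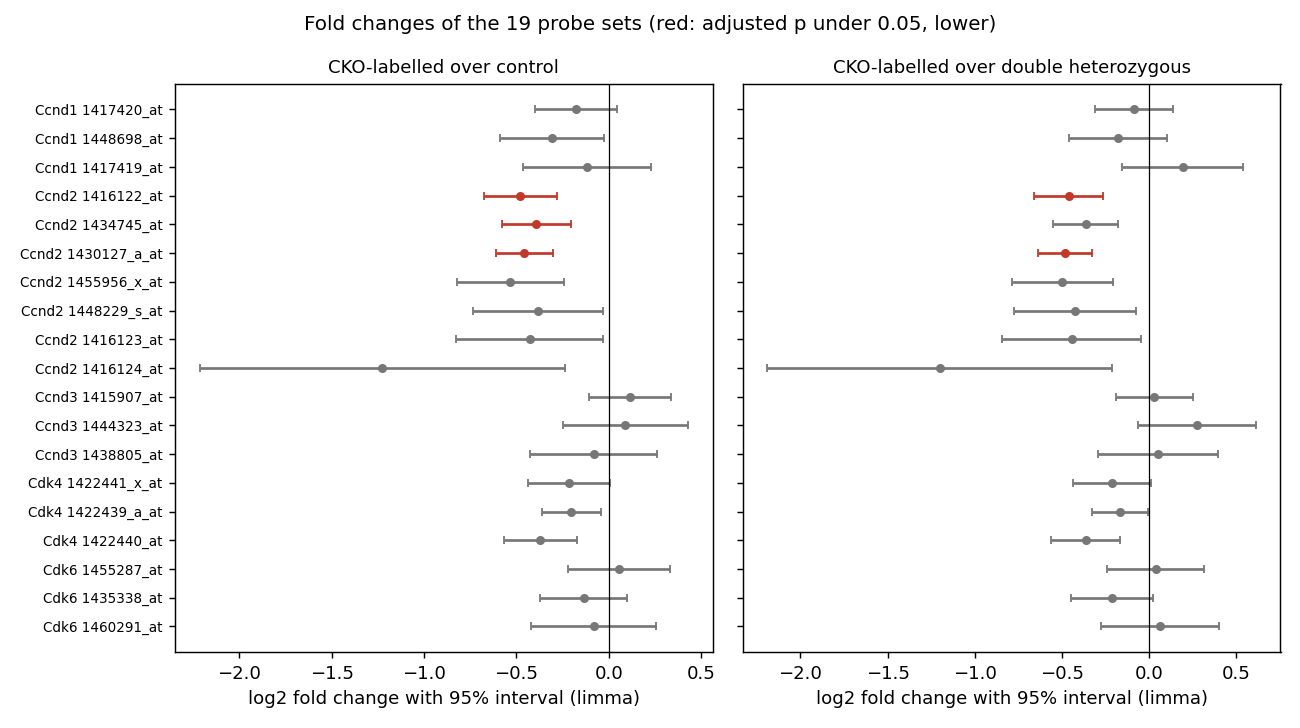
Log2 fold change with its 95% limma interval (horizontal axis) for the 19 probe sets, grouped by gene and ordered by mean signal (vertical axis), in CKO-labelled over control arrays on the left and over double heterozygous arrays on the right. Red marks an adjusted p under 0.05. All 7 Ccnd2 probe sets lie below 0 in both panels. The lead probe sets of Ccnd3 and Cdk6 lie around 0, where their sign turned with the scaling. In the right panel Cdk6 1435338_at lies at -0.21 and the dim Ccnd3 1444323_at at 0.28.

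The double heterozygous hearts share the Nkx2-5 cre allele with the CKO-labelled ones and differ from them in 1 Gata4 allele. Against them, the CKO-labelled mean was again lower on all 7 Ccnd2 probe sets, and 2 fell. Of the 19 members 13 had a lower CKO-labelled mean (background 51.2%), 6 had groups that did not overlap, all with CKO-labelled arrays below (background 4.45%), and 9 reached an unadjusted p under 0.05 (background 12%). Of all probe sets 157 were called (0.349%), 129 of them higher (0.286%) and 28 lower, and with median centring 43 were called higher and 22 lower. The lead probe set read 11.56, 11.52 and 11.74 in double heterozygous arrays, above every CKO-labelled array, and gave a log2 fold change of -0.46 (SE 0.0931, limma adjusted p = 0.0497). On 1430127_a_at double heterozygous arrays read 11.19, 11.14 and 11.40, and the log2 fold change was -0.48 (SE 0.0731, limma adjusted p = 0.00894). The lead's call was lost under median centring (limma adjusted p = 0.0535) and both were lost on the deposited scale (0.284 and 0.197). Called lower were 2 of the 19 (background 0.0622%). No other member passed. Cdk4 gave -0.17 on its lead probe set and -0.36 on 1422440_at (limma adjusted p = 0.126), with groups that did not overlap on either. Ccnd1 gave -0.09, Ccnd3 0.03 and Cdk6 0.04 on their lead probe sets, the last pair with signs that turned under median centring and on the deposited scale. The comparisons with double heterozygous and with control arrays share the CKO-labelled arrays.

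By genotype label, the double heterozygous arrays differ from the control arrays in the Nkx2-5 cre allele. That allele brings Cre, which can delete the floxed Gata4 allele of the double heterozygous hearts and is absent from the controls. Effects of the altered Nkx2-5 allele and of a lost Gata4 allele cannot be told apart in this comparison. Between these groups 0 of the 19 probe sets and 0 of all 45037 were called by limma (0%), and 1435 of all reached an unadjusted p under 0.05 (3.19%), none of them a member. The ordinary linear model likewise called 0 of 45037, and limma with array weights called 8. The 7 Ccnd2 probe sets lay between -0.04 and 0.04, and the lead gave -0.02 (95% interval -0.24 to 0.20). Ccnd1 lay between -0.31 and -0.09, Cdk4 between -0.04 and 0.00, Ccnd3 between -0.19 and 0.08, and Cdk6 between -0.15 and 0.08, all as log2 fold changes of double heterozygous over control arrays. An F-test over the 3 groups called the same 3 Ccnd2 probe sets as the comparison with control, out of 433 called in all (0.961%).

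Averaging the probe sets of a gene before the test, with 18193 genes, gave Ccnd2 a log2 fold change of -0.56 (SE 0.0646, limma adjusted p = 0.000598) in CKO-labelled over control arrays and -0.55 (SE 0.0646, limma adjusted p = 0.00157) over double heterozygous arrays. CKO replicate 2 lay 0.52 log2 units below the control mean in this average, and 0.07 below it once 1416124_at was left out, against 0.48 to 0.57 for the other 4 CKO-labelled arrays. Without 1416124_at the average gave -0.45 over control (SE 0.105, limma adjusted p = 0.0392) and -0.44 over double heterozygous arrays, which did not pass (limma adjusted p = 0.0742). Cdk4 gave -0.26 over control (limma adjusted p = 0.118). Ccnd1 gave -0.20, Ccnd3 0.04 and Cdk6 -0.05, none of which passed.

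The brightness of different probe sets depends on their probes, so the arrays give no share of molecules for each cyclin. A change in the within-array log2 ratio of 2 probe sets shows only that they changed unequally, and array scaling cancels in it only in part. Between groups, 12 such differences were tested with a two-sided exact permutation test over arrays, which cannot give a p below 0.0179 for 5 against 3 arrays or below 0.1 for 3 against 3. The Ccnd3 over Ccnd2 ratio of lead probe sets, as a difference from the control mean, was 0.74, 0.13, 0.72, 0.49 and 0.88 in CKO-labelled arrays, 0.16, 0.21 and -0.07 in double heterozygous arrays, and -0.17, -0.02 and 0.19 in control arrays. Of the CKO-labelled arrays, 4 lay above all other arrays, and CKO replicate 2 lay among them. The mean difference was 0.59 over control (exact p = 0.0536, adjusted over the 12 p = 0.214) and 0.49 over double heterozygous arrays (exact p = 0.0714, adjusted p = 0.214), neither of which passed. Without CKO replicate 2 these were 0.71 and 0.61 (exact p = 0.0286 each, unadjusted). That p is the smallest the exact test allows with 4 against 3 arrays. Without control replicate 3 the difference over control was 0.69.

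The Ccnd1 over Ccnd2 ratio was 0.29, 0.16, 0.04, 0.56 and 0.46 in CKO-labelled arrays relative to the control mean, against -0.04, 0.09 and -0.05 in control arrays. It was higher in 4 of the 5 CKO-labelled arrays than in any control array. The mean difference was 0.30 over control (exact p = 0.0714, adjusted p = 0.214) and 0.37 over double heterozygous arrays (exact p = 0.0536, adjusted p = 0.214). With the mean of each gene's probe sets in place of the lead, the Ccnd3 over Ccnd2 difference was 0.60 and the Ccnd1 over Ccnd2 difference 0.36 over control (exact p = 0.0179 and 0.0357, unadjusted), and 0.67 and 0.53 over double heterozygous arrays (exact p = 0.0179 each, unadjusted). The Ccnd3 mean includes the dim probe sets 1444323_at and 1438805_at. Without Ccnd2 1416124_at the differences were 0.49 and 0.24 over control and 0.56 and 0.42 over double heterozygous arrays (exact p = 0.0179 each, unadjusted). The ratios that leave Ccnd2 out moved less clearly. Ccnd1 over Ccnd3 differed by -0.29 (exact p = 0.179) and Cdk6 over Cdk4 by 0.26 (exact p = 0.161) in CKO-labelled over control arrays.

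**Figure D4:**
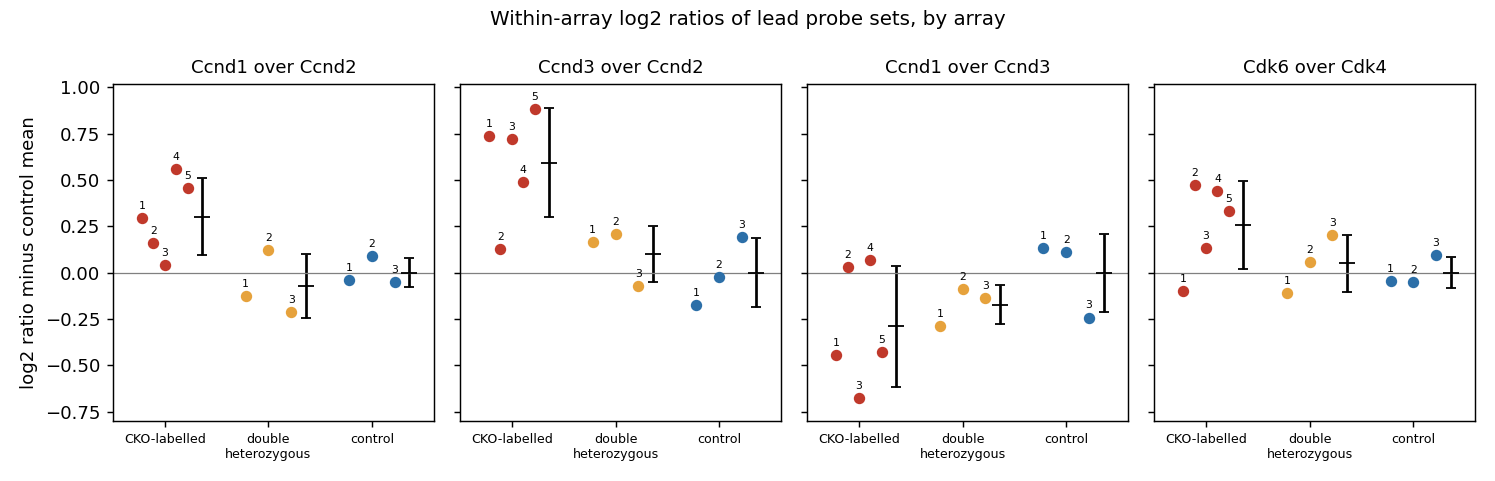
Within-array log2 ratios of lead probe sets, as differences from the mean of the 3 control arrays (vertical axis), in CKO-labelled, double heterozygous and control arrays (horizontal axis). Points are arrays with their replicate number, and bars are mean ± SD. The Ccnd3 over Ccnd2 ratio separates 4 of the 5 CKO-labelled arrays from all others and leaves CKO replicate 2 at 0.13, while none of the 4 differences between CKO-labelled and control arrays passed the exact test.

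The rest of the pathway was read from 6 lists on lead probe sets, in order from the kinases' inhibitors to the genes that E2F drives. Of the 7 inhibitors none passed the test in CKO-labelled over control arrays, and their median log2 fold change was 0.20. The INK4 protein gene Cdkn2b gave 0.27 (limma adjusted p = 0.621) and the KIP gene Cdkn1c 0.10 (limma adjusted p = 0.589), the second with its sign turned under median centring and on the deposited scale. Of 8 measured genes for the chaperone, the activating kinase and the turnover of cyclin D, none passed, with Gsk3b, a kinase that marks cyclin D1 for degradation, at 0.41 (limma adjusted p = 0.287) and Cdk7, the CDK-activating kinase, at -0.22 (limma adjusted p = 0.455). Of 13 genes of the retinoblastoma family and the E2F factors, 12 had lower means (background 51.5% of all probe sets) and none passed. The repressor gene E2f6 gave -0.34 (limma adjusted p = 0.111) and the E2F partner gene Tfdp1 -0.24 (limma adjusted p = 0.182).

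All 14 measured E2F target genes of DNA replication had lower means in CKO-labelled arrays, with a median log2 fold change of -0.35, and 3 of them fell, against 51.5% of all probe sets with a lower mean and 0.566% called lower. None of the 3 was called on the deposited scale (limma adjusted p = 0.0957 to 0.19), and over 23 alternatives the call was lost in 8 for Pcna, 14 for Tk1 and 18 for Mcm7. Pcna, the sliding clamp of DNA polymerase, averaged 11.39 in CKO-labelled and 11.77 in control arrays (log2 fold change -0.38, SE 0.0718, limma adjusted p = 0.0171). Mcm7, a subunit of the replicative helicase, averaged 9.75 in CKO-labelled and 10.15 in control arrays (limma adjusted p = 0.0483). Tk1, which makes thymidine nucleotides for S phase, averaged 7.49 in CKO-labelled and 8.15 in control arrays (limma adjusted p = 0.0473). The mean log2 difference of the list from control was -0.25, -0.52, -0.32, -0.39 and -0.38 in CKO-labelled arrays 1 to 5, between -0.04 and 0.00 in double heterozygous arrays, and between -0.07 and 0.04 in control arrays. CKO replicate 2, nearest to control on the lead Ccnd2 probe set, was the lowest on this list. Against double heterozygous arrays Pcna was the only one of the 14 that fell (log2 fold change -0.39, limma adjusted p = 0.0284), a call lost in 12 of 23 alternatives. In that comparison 3 of the 14 fell without CKO replicate 3, and 5 without CKO replicates 2 and 3. Against control, 2 of the 14 fell without CKO replicate 2, and 5 without CKO replicates 2 and 3.

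Of the 8 measured cyclins, kinases and regulators of later phases, all had lower means in CKO-labelled than in control arrays (background 51.5%). Their median log2 fold change was -0.23. Cdk1, the mitotic kinase gene, fell (-0.27, SE 0.0633, limma adjusted p = 0.0493, and 0.26 on the deposited scale), against 0.566% of all probe sets called lower. The Cdk1 call was lost in 16 of 23 alternatives, and without CKO replicate 2 none of the 8 passed. Over double heterozygous arrays none of the 8 was called. Of 16 upstream regulators of D cyclins, 3 rose in CKO-labelled over control arrays, against 0.837% of all probe sets called higher. They were Gata4 by 0.45 (limma adjusted p = 0.0321), Gata5 by 0.43 (limma adjusted p = 0.0464) and Gata6 by 0.41 (limma adjusted p = 0.0142), all cardiac zinc finger factors. With median centring these were 0.29, 0.28 and 0.26 and none was called (limma adjusted p = 0.241, 0.369 and 0.338). With each gene's probe sets averaged, Gata4 gave 0.27 and Gata5 0.27, neither of them called (limma adjusted p = 0.654 and 0.188). Mycn, a MYC family factor that drives proliferation of the early myocardium, fell by 0.42 on the log2 scale (SE 0.0897, limma adjusted p = 0.03, and 0.16 on the deposited scale). Averaged over its probe sets Mycn gave -0.16 (limma adjusted p = 0.459), and 11 of 23 alternatives ended its call. None of the 16 was called in CKO-labelled over double heterozygous arrays.

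Marker lists of 8 cell types were read in CKO-labelled over control arrays. Cardiomyocyte genes were at or above the 96.5th percentile of mean signal, and 1 of 10 was called, Myh7 (0.27, higher). Their summed deposited intensity was 42622 to 62495 in CKO-labelled, 55813 to 60823 in double heterozygous and 59130 to 61032 in control arrays, the lowest being CKO replicate 3, which is dimmer throughout. Of 6 proepicardial markers, Tcf21 and Lrrn4 fell (log2 fold changes -1.31 and -1.20). Tbx18, Upk3b and Aldh1a2 had lower means without a call. Wt1 went the other way, at 0.23, and was not called (limma adjusted p = 0.649). The list's sum was 324.6 to 929.8 in CKO-labelled, 500.7 to 789.4 in double heterozygous and 1024 to 1142 in control arrays. Of 7 endothelial markers, Cdh5 and Kdr rose and Tek fell. Their sum was 1533 to 2701 in CKO-labelled, 1934 to 2173 in double heterozygous and 2033 to 2165 in control arrays. The low end was again CKO replicate 3. After quantile scaling, the list's mean log2 difference from control was 0.15 to 0.33 in CKO-labelled arrays. It was -0.003 to 0.06 in double heterozygous and -0.04 to 0.05 in control arrays. Isl1, of 4 second heart field markers, rose by 1.38, while Fgf8, Tbx1 and Fgf10, of the same list, were not called (0.52, 0.07 and -0.11). Isl1 lay at the 83.7th percentile of mean signal, and Fgf8, Tbx1 and Fgf10 at the 48.2th, 32.9th and 43.3th. That list's sum was 189.4 to 428.8 in CKO-labelled, 221.5 to 251.1 in double heterozygous and 129.3 to 174.1 in control arrays. The lowest CKO-labelled sum was CKO replicate 3. After quantile scaling, this list's mean log2 difference from control was 0.24 to 0.60 in CKO-labelled arrays. It was 0.18 to 0.38 in double heterozygous and -0.02 to 0.02 in control arrays. Sox17, of 4 endoderm markers, rose by 0.92, while Shh, Foxa2 and Epcam, of the same list, were not called (0.31, 0.06 and 0.04). Foxa2 and Epcam were at or near 0 deposited intensity on 3 arrays and 1 array. None of 7 erythroid, 4 neural crest or 3 leukocyte markers was called. The part of these cell types in the Ccnd2, Cdk4 and E2F target values was not tested.

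The genes whose pattern over the 11 arrays was most like the lead Ccnd2 probe set, by the root mean square of differences in log2 signal relative to the control mean, were Polr1e (0.09), Rgs12 (0.11), Qtrt1 (0.11), Aven (0.11) and Spryd4 (0.11), out of 18193 genes. Ccnd2 itself deviated from its control mean by 0.35 on this measure. In CKO-labelled over control arrays Qtrt1 and Aven passed the test (-0.51 and -0.54, limma adjusted p = 0.0299 and 0.0269), and Polr1e, Rgs12 and Spryd4 did not. Those most like the lead Ccnd1 probe set were Glce, Rragc, Snx9, Wdr76 and Kif2a, at 0.07 to 0.08, where Ccnd1 itself deviated by 0.18, and none of these 5 passed. These genes were chosen for their likeness on the same arrays, so their values are a description.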

How the data were processed

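The authors deposited 1 linear intensity per probe set and array, 45101 per array, per the labels' protocols from 50 ng of TRIzol-extracted total RNA amplified and biotin-labelled with an Ovation kit. The submitters' processing notes name PLIER and nothing else. The authors' scaling, background correction and detection calls are not stated in the sources used here. From the deposited intensities, log2(value + 16) was taken without the 64 control probe sets and quantile-scaled. Fold changes are on that scale and understate changes of dim probe sets. Symbols came from the platform annotation: 34945 probe sets had 1 symbol, 932 several and 9160 none. Groups came from the genotype labels. All 3 groups were fitted together with limma 3.58.1 in R 4.3.3 (intensity trend, Benjamini-Hochberg over 45037). The fit and the permutation test were first tested on simulated data. A gene's lead probe set is the one with the highest mean, and _x_at and _s_at ones were used only where no other exists. Every member is named, and of each pathway list the genes called in any comparison or else the 2 with the smallest p. The members and lists were chosen with earlier results of these data known. Alternatives were other scalings, offsets, models, array weights, probe set averages, single arrays left out and, chosen after seeing the data, pathway counts without CKO replicates 2 and 3 and Ccnd2 averages without 1416124_at.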

Additional observations from a re-analysis of the deposited data

Results flagged for a closer look

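In the CKO-labelled group, 2 of 37 groups of values checked held an array far from the other 4, and chance flags about 1 in 20. Both are Ccnd2 probe sets and both are CKO replicate 2. On 1416122_at it read 11.4758, against 11.0308 to 11.1373 in the other 4 CKO-labelled arrays. On 1434745_at it read 11.4661, against 11.0374 to 11.129 in the other 4. The array with these values is the one whose 3' to 5' beta-actin difference was 1.001, and the part of that difference in them was not tested.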

How the results depend on the processing

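The number of member probe sets called was 3 in CKO-labelled over control arrays, 2 over double heterozygous arrays and 3 by the F-test. In that order it was 0, 0 and 1 as deposited, 0, 0 and 0 without limma's intensity trend, 1, 0 and 0 with the ordinary linear model, and 6, 5 and 5 with array weights. It was 1 and 1 with only the groups compared, 1, 1 and 1 with each gene's probe sets averaged, where 5 genes rather than 19 probe sets could be called, and 7, 5 and 6 without CKO replicates 2 and 3. Median centring, an offset of 1 and an offset of 64 each gave 1 over double heterozygous arrays. Leaving out 1 array gave 1 to 5, 0 to 4 and 1 to 4. Over control, 1 was called without control replicate 1, 2 or 3 or CKO replicate 5, and 5 without CKO replicate 2. Over double heterozygous arrays, 0 were called without double heterozygous replicate 1 or 3, 1 without double heterozygous replicate 2, any control replicate or CKO replicate 1, 4 or 5, 3 without CKO replicate 3, and 4 without CKO replicate 2. The F-test called 1 without any control replicate or CKO replicate 5. Between double heterozygous and control arrays the count stayed 0 in all 23 alternatives. The lead Ccnd2 call over control was lost in 9 of 23 alternatives (adjusted p 0.000284 to 0.123), the call of 1430127_a_at in 3 of 22 (0.000464 to 0.0806), and that of 1434745_at in 15 of 22 (0.00137 to 0.209). Over double heterozygous arrays they were lost in 17 of 23 and 6 of 22. Every Ccnd2 and Cdk4 probe set kept its direction in both comparisons. Where calls were lost the cause was not tested, apart from the smaller number of arrays or genes that some alternatives leave. The same-numbered replicates share only a number, with correlations of their deviations from -0.06 to 0.15 over 9 pairs, and with the replicate block 0, 0 and 0 member probe sets were called.

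Differences near 0 changed sign. For Ccnd3 on its lead probe set they were -0.052 over control and -0.10 over double heterozygous arrays on the deposited scale, -0.061 and -0.15 after median centring, and -0.017 to 0.085 over double heterozygous arrays with 1 array left out. For Cdk6 on its lead probe set they were -0.10 and -0.085 on the deposited scale, -0.10 and -0.13 after median centring, -0.055 and -0.036 with probe sets averaged, and -0.013 and -0.028 without CKO replicates 2 and 3, with ranges of -0.034 to 0.13 and -0.052 to 0.11 when 1 array was left out. Cdkn1c gave -0.018 over control as deposited and -0.026 after median centring. With 1 array left out, Ccnd1 1417419_at gave -0.26 to 0.0094 over control, Ccnd3 1444323_at -0.020 to 0.17, Ccnd3 1438805_at -0.17 to 0.0016, and Cdk6 1460291_at -0.16 to 0.018, the last at 0.11 without CKO replicates 2 and 3. The lead Ccnd2 probe set gave -0.084 to 0.027 in double heterozygous over control arrays. The Ccnd3 over Ccnd2 ratio gave 0.51 to 0.71 over control and 0.40 to 0.61 over double heterozygous arrays with 1 array left out. With probe sets averaged it gave 0.60 and 0.67 and Ccnd1 over Ccnd2 0.36 and 0.53, with exact permutation p from 0.0179 to 0.0357 before adjustment. In double heterozygous over control arrays the averages turned Ccnd3 over Ccnd2 to -0.074 and Cdk6 over Cdk4 to -0.0027, and 1 array left out gave this last ratio -0.025 to 0.13.

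Over all probe sets, 632 calls over control became 92 on the deposited scale, 362 after median centring, 281 without the trend, 296 with the ordinary model, 2393 with array weights, 263 with only the groups compared, 265 with the replicate block and 1362 without CKO replicates 2 and 3. The 157 calls over double heterozygous arrays became 15, 65, 53, 1, 613, 61, 65 and 650. The arrays carry no detection calls, so for Ccnd3 1438805_at and 1444323_at and Cdk6 1460291_at a difference could not be told from background.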

Other observations

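CKO replicate 2 also stood low on the second Gata4 probe set, 1418864_at, where it read 6.42, against 8.26 to 8.81 in the other 4 CKO-labelled arrays, 8.27 to 8.65 in double heterozygous arrays and 7.98 to 8.15 in control arrays. On the brighter Gata4 probe set it read 9.28, within 0.3 of the other CKO-labelled arrays. The pair of Gata4 probe sets thus parted on this array as the Ccnd2 probe sets 1430127_a_at and 1416124_at did.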
